A study of Homo sapiens with 8 samples.

Results

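The genes of the cytosolic ribosomal proteins were followed across 8 RNA sequencing libraries of hTERT-RPE1 cells. This human line comes from the retinal pigment epithelium and was made immortal with the telomerase subunit TERT. Members were all rows whose symbol is RPL or RPS with a number and an optional A, L, X or L1 ending, together with RPLP0, RPLP1, RPLP2 and RPSA; symbols with a pseudogene P after the number, the RPS6K kinases and the RPS4Y genes were left out. RPS10L, which GENCODE types as a processed pseudogene, met the symbol rule and was counted. This gave 86 of the 57884 listed genes, 52 of the large subunit and 34 of the small. The cells carried ATF3 as wild type or were labelled ATF3 knockout, ATF3 being a stress-induced transcription factor, and each genotype was kept in complete medium or placed for 8 h in medium without serine and glycine. The 4 groups hold 2 libraries each. The replicate number marks 1 of 2 batches, equal numbers being the same batch of treated cells per the series text. Starved cultures were grown in complete medium and washed before the change; no source used here says whether fed cultures were washed too, how the ATF3(-/-) allele was made, or whether each genotype was 1 clone.

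A ribosome joins a small subunit, which reads the mRNA, to a large subunit, which forms the peptide bond, and each protein of either subunit is made from its own gene. Most of these mRNAs start with a C followed by a run of pyrimidines (a TOP tract), through which mTORC1 and the RNA-binding protein LARP1 control their translation and their stability when amino acids are short. Unassembled ribosomal proteins are degraded, and some, such as RPL5 and RPL11, bind the ubiquitin ligase MDM2. Several members are paralogs that can take the place of another ribosomal protein, often in a tissue-dependent manner.

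The line was set against its defining markers. Of 12 retinal pigment epithelium markers only MITF was at 1 FPKM or more in every library, OTX2 was listed at 0 in all 8, RPE65 was at most 0.695, and none of 6 blood cell markers reached 1. TERT was listed at 0 in all batch 1 libraries and was at most 0.599 in batch 2. The batches stood apart: SPARC was 343 to 429 FPKM in batch 1 and at most 1.66 in batch 2, while KRT19 was at most 0.741 in batch 1 and 216 to 375 in batch 2. Other mesenchymal and epithelial markers went the other way. TWIST1 was at most 0.153 in batch 1 and 5.39 to 12.8 in batch 2, and KRT8 in wild type was 249 and 213 in batch 1 against 55.0 and 34.5 in batch 2. Within batch 2 the libraries labelled knockout also stood apart from wild type, with CDH1 at 60.0 and 56.2 against 0.541 and 1.23, and VIM at 118 and 102 against 598 and 638. Not every mesenchymal marker followed VIM there: FN1 was 38.3 and 56.7 against 44.5 and 58.7, and COL1A1 was 2.53 and 1.80 against 1.99 and 0.973. ATF3 mRNA was 3.47 and 6.46 FPKM in wild type (complete, then serine/glycine-free medium) against 3.38 and 4.45 with the knockout label in batch 1, and in batch 2 it was 3.65 and 18.0 in wild type and 20.8 and 57.3 with the knockout label. The genotype is therefore given as labelled throughout, and what these differences contribute to the values below was not tested.

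The 5′ ends carry the feature for which these mRNAs are known, so those of the members on which the results turn are shown. RefSeq start-site windows (GRCh38.p14; 250 bases before the start and 50 from it) were matched for 67 members, with 83 windows. A C at the start followed by at least 4 pyrimidines was found in 47 of the 83 windows (56.6%), against 4.07% of all 35116 windows, and in 47 of the 67 genes (70.1%) against 5.14% of all genes. Each stretch below runs from 35 bases before the annotated start to 20 bases from it, so that the start is base 36, and capitals mark the unbroken pyrimidine run through the start where that rule was met. RPS6, the substrate of the S6 kinases, lies at chr9:19380217-19380271 (minus strand), RPLP0, the base of the ribosomal stalk, at chr12:120201092-120201146 (minus), and RPL22 and its paralog RPL22L1 at chr1:6199576-6199630 (minus) and chr3:170870176-170870230 (minus). RPS27 and its paralog RPS27L lie at chr1:153990727-153990781 (plus) and chr15:63157458-63157512 (minus), and RPL4, RPL7L1 and RPS26, which had some of the highest and the lowest medium differences, at chr15:66504836-66504890 (minus), chr6:42879581-42879635 (plus) and chr12:56041883-56041937 (plus).
RPS6: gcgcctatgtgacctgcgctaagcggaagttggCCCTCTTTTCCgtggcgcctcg
RPLP0: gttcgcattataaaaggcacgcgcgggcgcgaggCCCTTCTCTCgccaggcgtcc
RPL22: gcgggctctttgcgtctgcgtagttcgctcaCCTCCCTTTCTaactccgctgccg
RPL22L1: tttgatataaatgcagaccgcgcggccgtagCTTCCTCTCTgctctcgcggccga
RPS27: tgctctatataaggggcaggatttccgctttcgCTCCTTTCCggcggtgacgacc
RPS27L: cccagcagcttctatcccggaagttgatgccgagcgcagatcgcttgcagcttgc
RPL4: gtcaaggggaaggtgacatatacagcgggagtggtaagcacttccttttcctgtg
RPL7L1: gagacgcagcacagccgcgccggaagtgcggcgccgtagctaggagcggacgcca
RPS26: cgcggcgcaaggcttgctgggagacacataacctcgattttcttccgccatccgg

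RPL22, RPL22L1 and RPS27 thus met the rule at the annotated start. RPS27L, RPL4, RPL7L1 and RPS26 did not, which says only that these letters are not at that base. On either strand of the windows, CCGGAAG, the core bound by ETS factors such as GABPA, was found in 33.7% of member windows against 10.3% of all windows. TGATGNAA, the element bound by C/EBP and ATF dimers such as ATF4, was in 2.41% against 3.62%, and the E-box CACGTG in 6.02% against 7.26%. Matches of different motifs could overlap, and a match is a description of the sequence.

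Levels were high and spread widely between members. FPKM is a level per transcript length, so members can be compared with one another. In all 8 libraries 74 members were at 100 FPKM or more, and 82 of the 86 (51 large, 31 small) passed the filter of 1 FPKM in at least 2 libraries. RPS24 had the highest mean level (2271 FPKM over the 8 libraries), followed by RPS29 (1778), RPL8 (1631) and RPS19 (1497). The lowest of those that passed were paralogs: RPL10L (11.1), RPL26L1 (31.8), RPL39L (36.4), RPL7L1 (56.4) and RPS27L (71.3). The 4 members that did not pass, RPL3L and RPS10L among them, stayed below 1 FPKM in every library and were not tested.

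**Figure D1:**
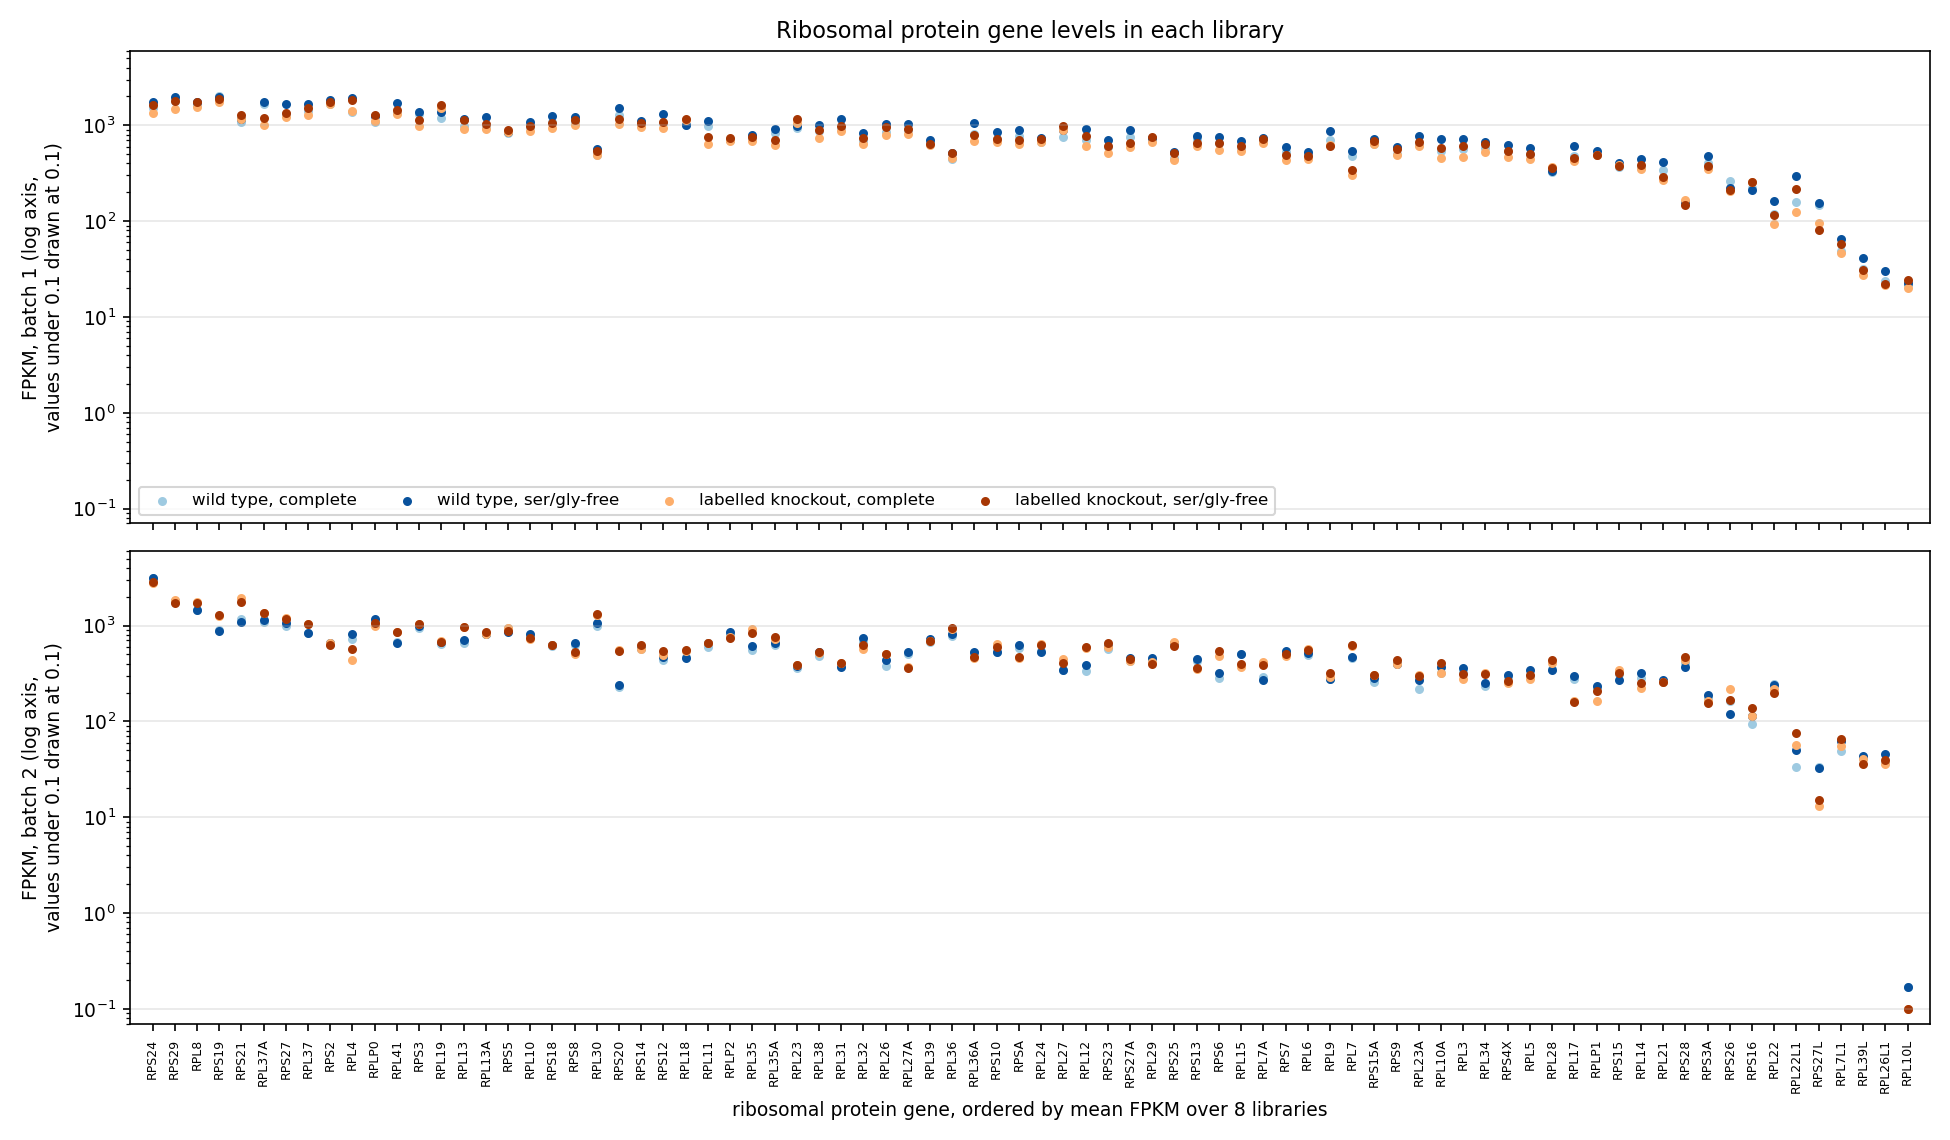
FPKM (log axis) in each library of 80 of the 82 members that passed the filter, ordered by mean level, with batch 1 above and batch 2 below; each point is 1 library, colours give genotype and medium, and values under 0.1 are drawn at 0.1. Points of 1 batch lie close together, while RPL10L is at 20.2 to 24.5 FPKM in batch 1 and at most 0.170 in batch 2.

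The order of the members was nearly the same within a batch and differed between batches. Across the 82 members, log2 levels of 2 libraries correlated at r = 0.972 to 0.997 within a batch (12 pairs) and at 0.829 to 0.842 between batches (16 pairs), a description over members that share library and table. The 2 tables were normalized separately, so the following levels set across them carry that limit. Of the 82, 50 members were higher in every batch 1 library than in any of batch 2, 9 were the reverse and 23 overlapped, where 29.8% and 15.8% of all genes tested had the same separations, with a median batch 2 minus batch 1 difference of −0.50 (log2) against −0.23 for all genes. RPL10L, the autosomal copy of X-linked RPL10, was 21.5, 22.5, 20.2 and 24.5 FPKM in batch 1 and 0.170, 0.168, 0 and 0 in batch 2. RPS20, a small-subunit head protein, was 1275, 1507, 1033 and 1161 against 231, 240, 550 and 549 (order: wild type complete, wild type serine/glycine-free, labelled knockout complete, labelled knockout serine/glycine-free). RPS28 went the other way, at 148 to 165 in batch 1 and 368 to 471 in batch 2, as did RPL30, at 485 to 567 and 996 to 1336. The summed level of the members was 15.7% to 17.6% of all nuclear protein-coding FPKM in batch 1 and 12.5% to 14.6% in batch 2. These batch differences moved together with the marker differences given above, and their source was not tested.

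The first comparison sets the family in serine/glycine-free medium at 8 h against complete medium at 0 h. No member passed limma's test (adjusted p under 0.05) in wild type, in cells labelled knockout, or in the mean of both, where 0.0556%, 0.0167% and 0.133% of the 17994 genes tested did. At an unadjusted p under 0.05 1 member was higher in wild type (RPL7L1), 0 in cells labelled knockout and 4 in the mean of both genotypes (RPL7L1, RPL10A, RPL22L1 and RPL3), where 3.72%, 3.34% and 6.16% of all genes were higher at that p. Lower at that p were 0 members in each of these comparisons, against 1.92%, 2.25% and 3.87% of all genes. The family nevertheless had a small shared offset. The median log2 difference (serine/glycine-free minus complete, on log2(FPKM + 1)) of the 82 members was 0.13 in wild type, 0.10 in cells labelled knockout and 0.11 in their mean, against 0.02, 0.01 and 0.02 for all genes tested; quantile normalization turned the labelled-knockout median to −0.06 and brought the mean to 0.01.

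The offset was larger in batch 1. There the median was 0.21 in wild type and 0.16 in cells labelled knockout, with 77 and 75 of 82 members higher. Of the 17994 genes tested, 8908 and 8456 were higher there. In batch 2 the median was 0.07 and 0.02, with 57 and 51 members higher, against 9274 and 9014 of all genes. In both batches 55 members were higher in wild type (background 29.9%), 45 in cells labelled knockout (27.1%) and 59 in the mean of both (30.8%), and 3, 1 and 2 were lower in both (24.6%, 25.1% and 26.2%). In all 4 pairs of libraries 36 of 82 members (43.9%) were higher, against 14.6% of all genes, and 0 were lower, against 11.4%. That count was 53 of 82 over the 3 pairs left without the batch 2 libraries labelled knockout (19.8% of all genes), and 7 of 82 under quantile normalization (12.1% of all genes), both alternatives being added after the data were seen. It was 26 with each library centred on its median (15.7% of all genes) and 24 after rescaling without short, rRNA and mitochondrial rows (12.3%). Among genes of mean FPKM 10 or more, 22.15% were higher in all 4 pairs. The wild-type median was 0.00 without the serine/glycine-free wild-type library of batch 1 and 0.23 without that of batch 2. The labelled-knockout median was −0.02 without the complete-medium library of batch 1 and 0.20 without that of batch 2, and the median of the mean response was 0.05 without either of these batch 1 libraries.

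**Figure D2:**
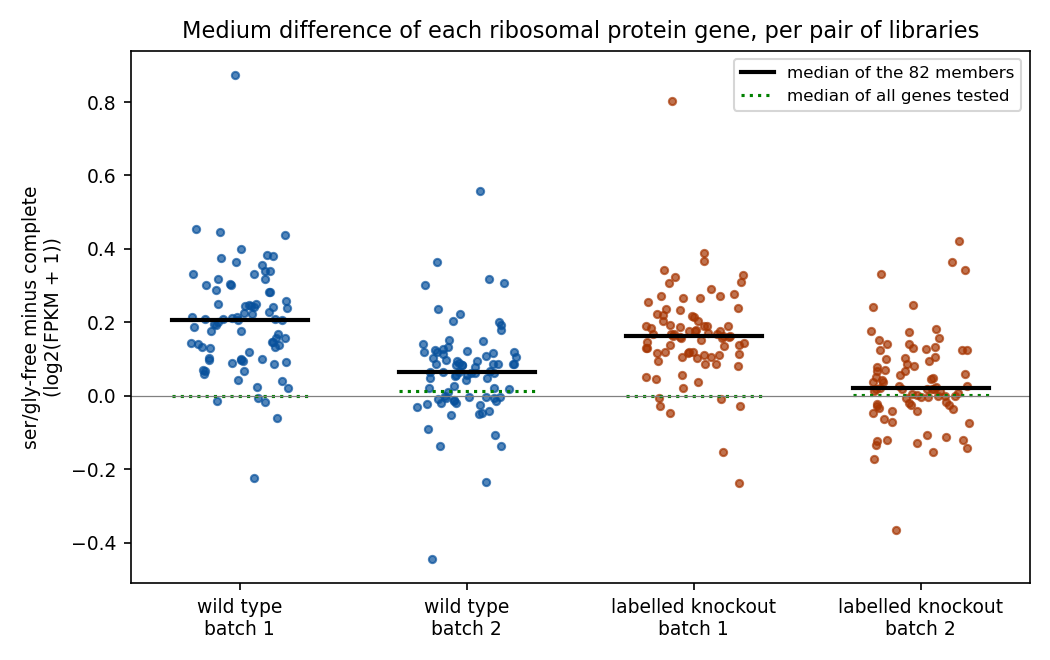
Medium difference on log2(FPKM + 1) of the 82 members in each of the 4 pairs of libraries; each point is 1 gene, black bars are the members' median and green dotted bars that of all genes tested. The members' medians are 0.21, 0.07, 0.16 and 0.02 from left to right, above those of all genes in each pair on the deposited scale; under quantile normalization the labelled-knockout median over both batches was −0.06.

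Both subunits took part in the offset, with a mean-response median of 0.12 over the 51 large-subunit members and 0.10 over the 31 of the small subunit. Of these, 38 and 21 were higher in both batches. The 47 members with the start tract had a median of 0.12 and the 20 without it 0.11. As a share of nuclear protein-coding FPKM, the summed family went from 15.99% to 17.6% in wild type and from 15.7% to 16.9% in cells labelled knockout in batch 1, but from 12.9% to 12.5% and from 14.6% to 13.9% in batch 2. The share was thus higher in serine/glycine-free medium in batch 1 and lower in batch 2. The summed FPKM itself was higher in 4 of 4 pairs, in batch 2 at 45507 and 47066 in wild type and at 49727 and 50350 in cells labelled knockout.

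The stalk proteins recruit elongation factors to the ribosome. RPLP0 was 1091 and 1260 FPKM (complete, then serine/glycine-free medium) in wild type and 1100 and 1266 in cells labelled knockout in batch 1, and 1077 and 1180, and 999 and 1075, in batch 2, higher in 4 of 4 pairs. Its mean response was 0.16 ± 0.11 (log2, SE, n = 2 per group). RPLP1 and RPLP2, which bind RPLP0 as dimers, had 0.14 ± 0.12 and 0.05 ± 0.10, and quantile normalization turned RPLP2 to −0.03. None of the 3 passed the threshold used here for standing apart from the family.

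RPL5 and RPL11, which with 5S rRNA form the particle that binds MDM2, were both higher in 4 of 4 pairs. RPL5 was 502 and 580 FPKM in wild type and 444 and 499 in cells labelled knockout in batch 1, and 301 and 347, and 278 and 303, in batch 2, a mean response of 0.18 ± 0.09. RPL11 was 987 and 1100, and 640 and 756, in batch 1, and 594 and 655, and 652 and 662, in batch 2 (0.14 ± 0.17). It was −0.0056 without the complete-medium library labelled knockout of batch 1. RPL23, which also binds MDM2, had 0.06 ± 0.10, and −0.09 under quantile normalization. In the small subunit, RPS3 of the mRNA entry site had 0.09 ± 0.14, RPS6 0.20 ± 0.22, RPSA 0.12 ± 0.10 and RPS4X 0.13 ± 0.10, all of them higher in 4 of 4 pairs; quantile normalization turned RPS3 and RPSA to −0.02 and −0.0078, and RPS3 was −0.01 without the complete-medium library labelled knockout of batch 1. RPS27A, made as a fusion to ubiquitin, had 0.14 ± 0.13, RPL13A of the interferon-gamma-controlled GAIT complex 0.16 ± 0.12, and RPL41, the smallest ribosomal protein, 0.11 ± 0.16. RPL41 was −0.01 under quantile normalization, −0.04 without the serine/glycine-free wild-type library of batch 1 and −0.0069 without the complete-medium library labelled knockout of that batch. On the deposited scale each of these lay within 1 standard error of the family's 0.11.

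RPL22L1 stood farthest above the family. RPL22 is an RNA-binding protein of the large subunit and RPL22L1 is its paralog (ENSG00000163584, hg19 chromosome 3, 170582663 to 170588272, no other listed row there). In batch 1 RPL22L1 was 159 and 293 FPKM in wild type and 124 and 217 in cells labelled knockout, and in batch 2 it was 33.8 and 50.3, and 56.1 and 75.5. All 4 pairs were higher in serine/glycine-free medium, while the batches did not overlap. The log2 difference was 0.72 ± 0.34 in wild type (SE, n = 2 per group; limma adjusted p = 0.912), 0.61 ± 0.34 in cells labelled knockout (adjusted p = 0.925) and 0.66 ± 0.24 in the mean (adjusted p = 0.448). The mean response was 8.67 scaled median absolute deviations above the members' median in batch 1 and 7.62 in batch 2, and tested against that median it was 0.54 (adjusted p = 0.467). It ranged from 0.43 to 0.90 when 1 library was left out, and in wild type it was 0.26 without the serine/glycine-free library of batch 1 and 1.17 without that of batch 2.

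RPL22 itself (ENSG00000116251, chromosome 1, 6241328 to 6296032, a locus shared with 3 other listed rows) was 118 and 161, and 94.0 and 117, in batch 1 and 245 and 241, and 217 and 198, in batch 2. It was higher in serine/glycine-free medium in both pairs of batch 1 and lower in both of batch 2. The RPL22L1 to RPL22 ratio, a ratio of FPKM within a library, was 1.35 and 1.82 in wild type and 1.32 and 1.86 in cells labelled knockout in batch 1. In batch 2 it was 0.138 and 0.208, and 0.259 and 0.381. The paralog was therefore above its parent in every batch 1 library and below it in every batch 2 library, and the ratio was higher without serine and glycine in 4 of 4 pairs, by 1.35 to 1.51 times (mean log2 difference 0.52 ± 0.07, SD, n = 4 pairs; exact two-sided sign-flip permutation p = 0.125, the smallest that 4 pairs allow, 0.25 adjusted over 10 paralog comparisons). The 4 pairs come from only 2 batches, so the pairs behind these permutation tests are not independent.

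**Figure D3:**
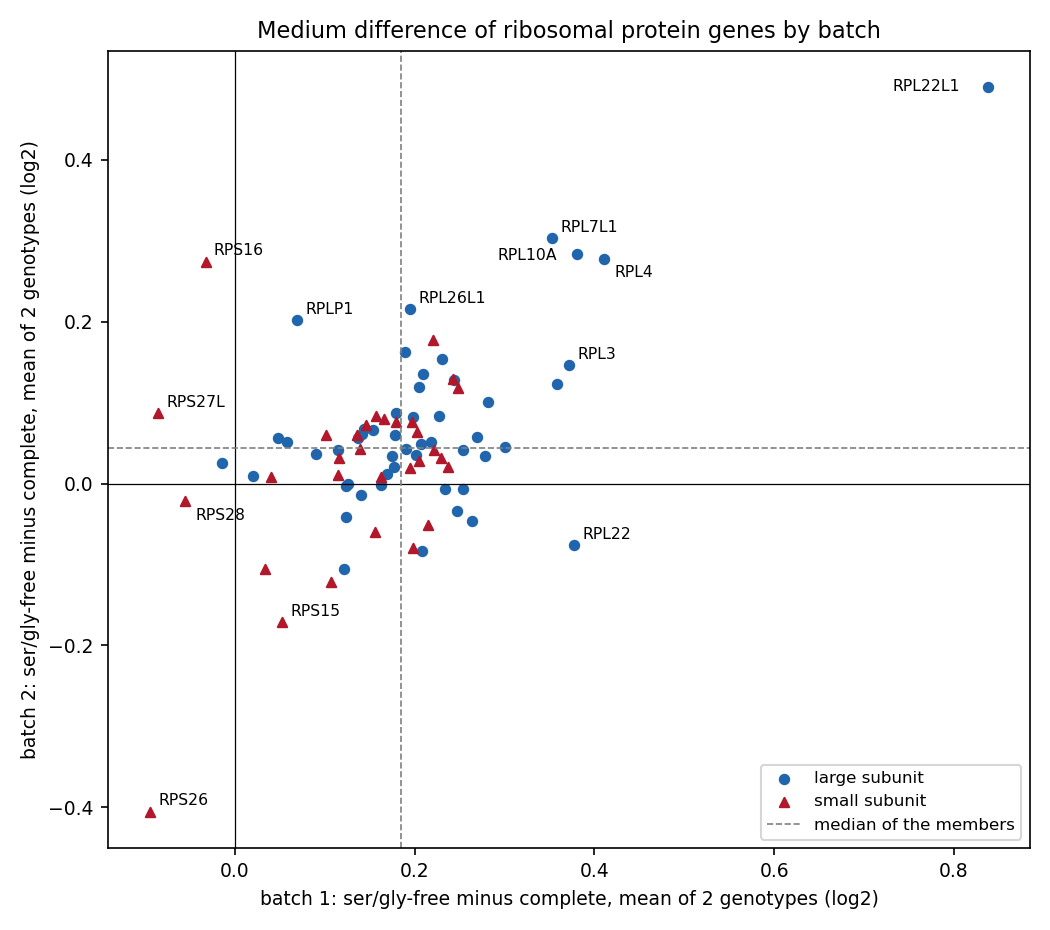
Medium difference of each member averaged over both genotypes (log2), batch 1 on the x axis and batch 2 on the y axis, with circles for the large and triangles for the small subunit and dashed lines at the members' medians of 0.18 and 0.04. RPL22L1 lies far to the upper right, RPL4, RPL10A and RPL7L1 form the next group, and RPS26 lies at the lower left.

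RPL4, RPL10A and RPL7L1 came next, and each was higher in 4 of 4 pairs. RPL4, which lines the exit tunnel, was 1391 and 1906 FPKM in wild type and 1421 and 1833 in cells labelled knockout in batch 1, and 718 and 821, and 442 and 569, in batch 2, a mean response of 0.34 ± 0.16 (limma adjusted p = 0.558), or 0.20 to 0.49 with 1 library left out. Its locus holds 6 other listed rows, 4 of them snoRNAs. RPL10A, a protein of the L1 stalk through which spent tRNA leaves, was 534 and 723, 458 and 573, 317 and 374, and 321 and 404 in the same order, at 0.33 ± 0.12 (adjusted p = 0.445). RPL7L1, the paralog of RPL7, was 48.9 and 64.8, 47.1 and 58.4, 48.8 and 63.1, and 55.1 and 65.4, at 0.33 ± 0.10 (adjusted p = 0.395, the lowest of any member in this comparison). Its levels in batch 1 and batch 2 overlapped, unlike those of RPL22L1. The RPL7L1 to RPL7 ratio was higher in 4 of 4 pairs, by 1.11 to 1.27 times (exact p = 0.125, adjusted 0.25). RPL3, which reaches into the peptidyl transferase centre, had 0.26 ± 0.10.

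RPS26 stood below the family. This protein of the mRNA exit channel (ENSG00000197728, chromosome 12, 56435636 to 56438116, no other listed row) was 259 and 222 FPKM in wild type and 207 and 212 in cells labelled knockout in batch 1, and 163 and 120, and 216 and 167, in batch 2. It was lower in serine/glycine-free medium in 3 of 4 pairs and about level in the fourth. The mean response was −0.25 ± 0.17 (limma adjusted p = 0.678), and the wild-type response −0.33 ± 0.24, which was −0.05 without the serine/glycine-free wild-type library of batch 2 and −0.62 without that of batch 1. The mean was −0.08 without the complete-medium library labelled knockout of batch 2 and −0.42 without that of batch 1. RPS28 was the other member lower in both batches in the mean response, at −0.04 ± 0.11, but it was 0.04 and 0.03 when 1 serine/glycine-free library was dropped, the batch 1 one labelled knockout or the batch 2 wild-type one. Against the family's median, 0 of the 82 members passed limma's test in the mean response (0.0667% of all genes did), with the lowest adjusted p of 0.467 shared by RPL22L1 and RPS26.

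The remaining paralogs did not share a direction of the medium difference. RPL26L1 was 23.5 and 30.0, 21.4 and 22.2, 36.7 and 45.6, and 35.9 and 39.2 FPKM and higher in 4 of 4 pairs (0.21 ± 0.11), yet its ratio to RPL26 was higher in only 3. RPL39L was higher in 3 of 4 pairs and had 0.11 ± 0.12, with its ratio to RPL39 at 0.0437 to 0.0606. RPL26L1 and RPL10L are copies of RPL26 and RPL10 whose identity was not computed here, and how the authors' counting shared reads within each pair is uncertain. RPL10, at 958 and 1083, 868 and 983, 789 and 824, and 717 and 747, was higher in 4 of 4 pairs (0.12 ± 0.10), whereas RPL10L, at or near 0 in batch 2, cannot be followed there. RPL39 had 0.05 ± 0.10, and −0.03 under quantile normalization. RPS27L had a mean response of 0.00 ± 0.14, whose sign turned with the library left out (−0.14 to 0.14), and RPS27 of 0.13 ± 0.14.

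**Figure D4:**
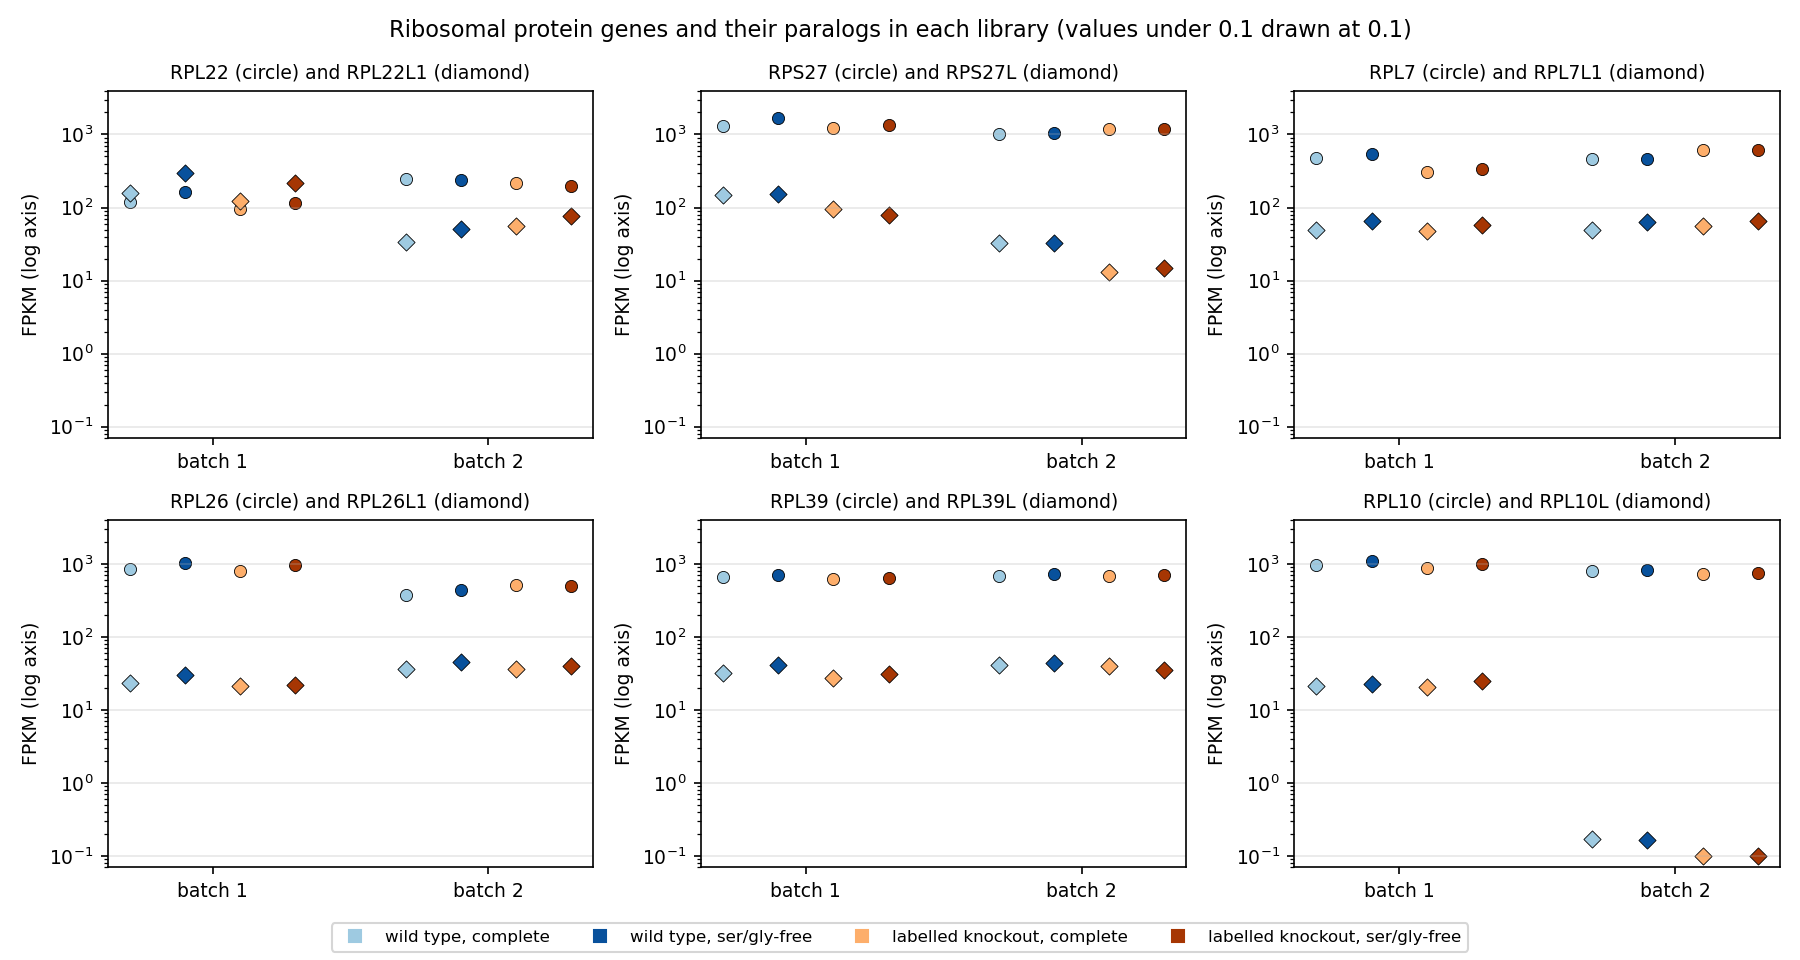
FPKM (log axis) in each library of 6 ribosomal protein genes (circles) and their paralogs (diamonds), by batch, with colours for genotype and medium and values under 0.1 drawn at 0.1. RPL22L1 lies above RPL22 in batch 1 and below it in batch 2, and RPS27L is lower in cells labelled knockout in both batches.

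The next comparisons set cells labelled knockout against wild type. No member passed in complete medium (0.0333% of all genes did) or in serine/glycine-free medium (9 genes, 0.050%). At an unadjusted p under 0.05 there was 1 member lower in complete medium (RPS27L; 2.86% of all genes were lower at that p) and 3 in serine/glycine-free medium (RPS27L, RPL17 and RPSA; 3.88%). Higher at that p were 0 members in either medium, against 1.92% and 1.98% of all genes. The family's direction differed between the batches. In batch 1 the median difference (labelled knockout minus wild type, log2) was −0.12 in complete and −0.15 in serine/glycine-free medium, and 60 of 82 members were lower in both media, against 34.8% of all genes, and 10 were higher, against 25%. In batch 2 it was 0.08 and 0.10, and 45 were higher in both media, against 31.8%, and 26 were lower, against 34.9%. Over both batches the medians were −0.03 and −0.07, values that average differences of opposite sign, and quantile normalization turned the first to 0.12. They were also positive without 1 library of batch 1: 0.09 in complete medium without the library labelled knockout, and 0.10 and 0.00 in serine/glycine-free medium without the wild-type library and without the one labelled knockout.

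The 2 media repeated the same member-by-member profile within a batch, and the batches did not. Across the 82 members the genotype difference in complete medium correlated with that in serine/glycine-free medium at r = 0.840 in batch 1 and 0.950 in batch 2. Between batches r was 0.078 in complete and 0.259 in serine/glycine-free medium. These are descriptions over members that share libraries. Lower in batch 1 and higher in batch 2 in both media were 31 members (11.3% of all genes), and 1, RPLP0, was the reverse (8.27%). That count of 31 was 12 after rescaling without short, rRNA and mitochondrial rows (7.61% of all genes) and 7, or 8.54%, under quantile normalization (8.92% of all genes). RPS20 had the widest split, at −0.30 and −0.38 in batch 1 and 1.25 and 1.19 in batch 2. RPS6 had −0.23 and −0.20 against 0.77 and 0.76, RPL12 of the stalk base −0.21 and −0.24 against 0.80 and 0.64, and RPL7 −0.64 and −0.67 against 0.42 and 0.41. In batch 2 the markers CDH1 and VIM also differed by genotype label, as given above, and the part of cell state in these differences was not tested.

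**Figure D5:**
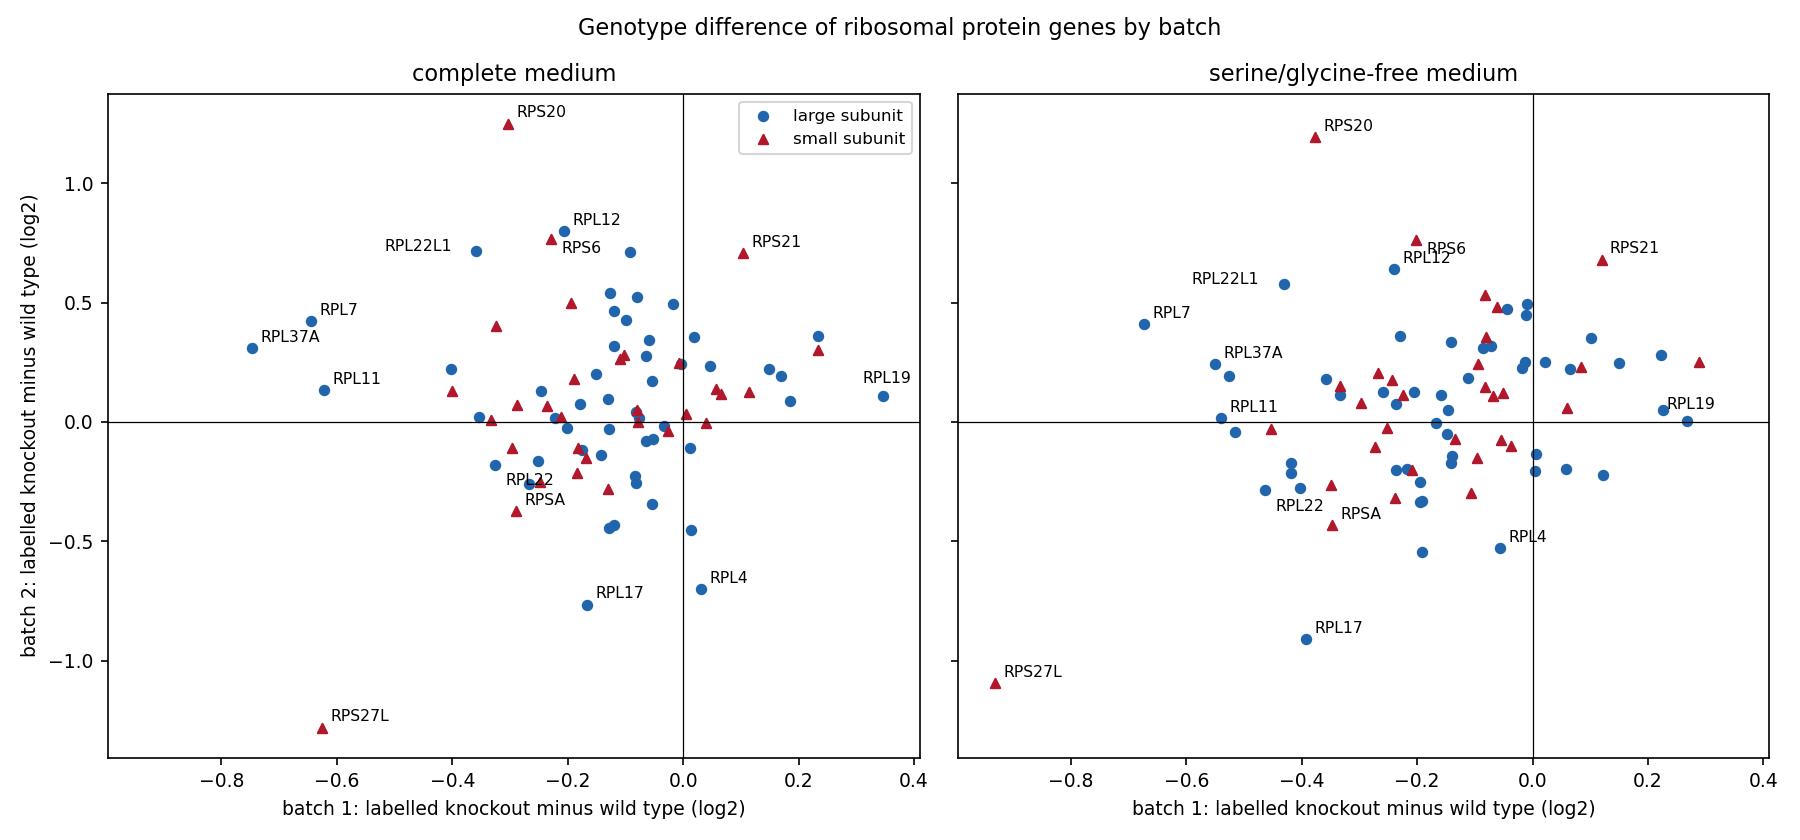
Difference between cells labelled knockout and wild type for each member (log2(FPKM + 1)), batch 1 on the x axis and batch 2 on the y axis, in complete medium on the left and serine/glycine-free medium on the right. Points in the upper left were lower in batch 1 and higher in batch 2, such as RPS20, and RPS27L lies at the lower left in both panels.

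In all 4 pairs, 20 members were lower in cells labelled knockout (13.2% of all genes) and 8 were higher (8.34%). Under quantile normalization the 20 became 7 (8.54%, against 10.3% of all genes), and among genes of mean FPKM 10 or more 19.5% were lower in all 4. RPS27L led those that were lower. It is the paralog of RPS27 (ENSG00000185088, chromosome 15, 63413998 to 63450220, a locus shared with 1 other coding row). In complete medium it was 147 FPKM in wild type and 94.8 in cells labelled knockout in batch 1, and 33.2 and 13.1 in batch 2. In serine/glycine-free medium it was 154 and 80.2, and 33.0 and 14.9. Each library labelled knockout was below both wild-type libraries of its batch. The log2 difference was −0.95 ± 0.20 (SE, n = 2 per group; limma adjusted p = 0.857) in complete and −1.01 ± 0.20 (adjusted p = 0.801) in serine/glycine-free medium, more than 3 scaled median absolute deviations below the family in both batches and both media. Without both batch 2 libraries labelled knockout the differences were −0.64 and −0.91, and with 1 library left out they ranged from −1.23 to −0.68 and from −1.12 to −0.90. The RPS27L to RPS27 ratio was lower in cells labelled knockout in 4 of 4 pairs (mean log2 difference −1.01 ± 0.53, SD, exact two-sided permutation p = 0.125, adjusted 0.25). The RPL26L1 to RPL26 and RPL39L to RPL39 ratios were also lower in 4 of 4 pairs, at −0.30 ± 0.19 and −0.17 ± 0.10. Their exact permutation p was the same 0.125 (adjusted 0.25). The RPL22L1 to RPL22 ratio was higher in 3 of 4 pairs and the RPL7L1 to RPL7 ratio in 2.

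Beside RPS27L, CDKN1A, a cell cycle inhibitor, was lower in cells labelled knockout in batch 1 (94.0 and 123 against 47.1 and 75.2) and higher in batch 2 (8.61 and 29.9 against 37.2 and 89.9). MDM2 was 42.3 and 45.2 against 36.4 and 24.6 in batch 1 and 14.3 and 15.6 against 19.8 and 19.7 in batch 2. Their part in the RPS27L values was not tested.

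RPL17, which lies at the tunnel exit, and RPSA, first described as a laminin receptor precursor, were also lower in 4 of 4 pairs. RPL17 was 480 and 604 FPKM in wild type (complete, then serine/glycine-free medium) and 427 and 460 in cells labelled knockout in batch 1. In batch 2 it was 276 and 301 against 162 and 160. RPL17 thus had differences of −0.47 ± 0.21 and −0.65 ± 0.21, which ranged from −0.72 to −0.21 and from −0.88 to −0.42 with 1 library left out. Its locus holds 7 other listed rows, 3 of them snoRNAs and 2 coding. RPSA was 776 and 889 against 635 and 698, and 588 and 634 against 454 and 470, with −0.33 ± 0.14 and −0.39 ± 0.14. Both genotypes of RPSA were separate within each batch. Among the 8 higher in all 4 pairs, RPS21 had 0.41 ± 0.23 and 0.40 ± 0.23, and RPS16 0.27 ± 0.16 in each medium; the other 6 included RPL18, RPL28, RPL23, RPL27 and RPL19. RPS21 was 1090 and 1168 in wild type against 1171 and 1269 in batch 1, and 1182 and 1097 against 1931 and 1758 in batch 2, so its difference was mostly in batch 2. With 1 library left out it was as low as 0.13 and 0.14 for RPS21 (complete medium without the batch 2 library labelled knockout, serine/glycine-free without the batch 2 wild-type library) and 0.14 and 0.15 for RPS16. RPL27 of the large subunit had 0.30 ± 0.16 in complete medium.

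Whether the medium response depended on the labelled genotype was tested by the interaction. No member passed (0.0611% of all genes did), and at an unadjusted p under 0.05 there were 0 in either direction, against 0.678% of all genes higher and 0.856% lower. The median of the difference between responses (labelled knockout minus wild type) was −0.03, with −0.04 in batch 1 and −0.03 in batch 2, against −0.02 for all genes tested. It was 0.04 without both batch 2 libraries labelled knockout and ranged from −0.16 to 0.09 with 1 library left out, so its direction depended on the libraries used. In both batches 30 members had the smaller response in cells labelled knockout (25.8% of all genes) and 11 the larger (21.5%). RPL23A, at −0.28 ± 0.26, and RPL26L1, at −0.24 ± 0.21, were the lowest, and RPS26, at 0.17 ± 0.34, was the highest. With 1 library left out RPL23A ranged from −0.47 to −0.08. For RPS26 the value was −0.18 without the complete-medium library labelled knockout of batch 1 and −0.11 without the serine/glycine-free wild-type library of batch 2.

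Other genes of ribosome production gave the surroundings of the family. Of 36 genes of ribosome assembly and RNA polymerase I, 26 were higher in serine/glycine-free medium in both batches and 1 was lower, with a median mean response of 0.32 and 0 passing limma's test. For these lists as for the family, 30.8% of all genes tested were higher and 26.2% lower in both batches. RRP12, a factor of subunit export, was 10.6 FPKM fed and 18.9 starved in wild type, and 14.2 and 32.4 in cells labelled knockout, in batch 1, and 6.99 and 17.7, and 6.94 and 15.0, in batch 2 (1.04 ± 0.19, limma adjusted p = 0.233). DKC1, the pseudouridine synthase of H/ACA particles, had 0.67 ± 0.10 (adjusted p = 0.14). Of 18 other mRNAs with TOP tracts, 13 were higher in both batches and 1 lower (median 0.13, 0 passing): EEF2, which moves the ribosome along the mRNA, had 0.32 ± 0.10 and EEF1A1, which delivers tRNA, 0.27 ± 0.11, while PABPC1, the poly(A)-binding protein, had −0.29 ± 0.15. That list also holds VIM, whose level followed genotype label and batch as given above, and NAP1L1 and IPO7 stand both in it and in the next. Of 18 genes listed as ribosomal protein chaperones and import factors, not all dedicated to them, 10 were higher in both and 3 lower (median 0.10, 0 passing). RPF2, which brings RPL5 and RPL11 into the large subunit, had 0.54 ± 0.11. Of 77 mitochondrial ribosomal protein rows tested, 40 were higher in both and 15 lower, with a median of 0.07.

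A further list held genes of TOP mRNA and translation control, together with transcription factors such as MYC, GABPA and YY1. Of its 22 tested genes, 11 were higher in both batches and 8 lower, against 30.8% and 26.2% of all genes (median 0.03, 0 passing). EIF4EBP1, the inhibitor of cap-dependent initiation that mTORC1 inactivates, was 69.8 and 150, and 76.1 and 176, FPKM in batch 1 and 79.7 and 161, and 71.2 and 118, in batch 2 in the same order (1.00 ± 0.15, limma adjusted p = 0.152). SESN2, an mTORC1 inhibitor, had 2.46 ± 0.31 (adjusted p = 0.0967) and LARP1 0.34 ± 0.17. Of 4 ribosome-related genes next to the family by name or function, RPL36AL was lower in both batches (−0.15 ± 0.10), FAU had −0.05 ± 0.16 and GNB2L1 (RACK1) 0.05 ± 0.11. The median of the 4, −0.01, was below the family's 0.11. Rows of ribosomal protein pseudogenes summed to 1.59% to 1.89% of the family's FPKM. Single genes can differ from this share. RPL13AP5, the pseudogene row with the highest mean, was 110 FPKM beside RPL13A at 811 in the batch 2 complete-medium library labelled knockout. How reads were shared between members and pseudogenes was not tested.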

How the data were processed

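RNA was taken from 8 cultures and sequenced on Illumina instruments, per the labels' protocols. The authors deposited gene-level FPKM, in a separate table for each batch, so values were compared within a batch. The submitters' processing notes name TopHat, Cufflinks, Cuffdiff and hg19; no source used here gives their versions. FPKM holds no depth, so precision rests on the libraries alone. Rows of short RNAs, rRNA and mitochondrial genes took 75.2% to 81.0% of each FPKM sum, and 59 of the 86 members share their locus with another row, so reads may be split between rows. The titles gave groups and replicate numbers. Genes reaching 1 FPKM in 2 or more libraries (17994) entered limma 3.58.1 (R 4.3.3) on log2(FPKM + 1), with a mean per group, a batch block and a trended prior (3 residual and 2.97 prior degrees of freedom). Two-sided p-values were adjusted by Benjamini-Hochberg over all genes, with a threshold of 0.05, and rest on 2 batches. Equal numbers mark the same experiment per the labels, and the deviations of same-numbered libraries from their group means correlated at 0.650 to 0.775 (12 pairs). The script was tested on simulated data with the residual spreads of these libraries. There 28% of genes changed by 1 (log2) passed in the mean response, and 64% of those changed by 2. Of 82 members shifted by 0.2, 1 passed. Not passing is therefore no evidence that a member did not change.

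Members over 3 scaled median absolute deviations from the members' median, on 1 side in both batches, were singled out. Also named were paralogs with their parents, members of known role, the 3 highest and 3 lowest per comparison with 1 sign in both batches, and the 5 highest and lowest levels. RPS20, RPS6, RPL12 and RPL7 in the genotype comparison, RPS28 and RPL30 between batches, and the pathway and marker genes named were picked after their values were seen. Some genes that these rules name are not reported here. Members and lists were chosen with earlier results of these data known. Alternatives changed the pseudocount, filter, scaling, block, prior and the libraries used; quantile normalization, the rescaling and the fit without 2 libraries were among them.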

Additional observations from a re-analysis of the deposited data

Results flagged for a closer look

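RPL18 and RPS19 were singled out because wild type and cells labelled knockout moved in opposite directions with the medium in both batches. RPL18 was 1016 (complete) and 1005 FPKM (serine/glycine-free) in wild type and 1127 and 1172 in cells labelled knockout in batch 1, and 464 and 458, and 542 and 556, in batch 2, a difference between the responses of 0.066 (log2). RPS19 was 2014 and 1993, and 1761 and 1881, in batch 1, and 892 and 887, and 1261 and 1283, in batch 2, a difference of 0.073. RPS2 was singled out because its genotype difference had opposite signs in the 2 media in both batches, a difference of −0.083. None was tested apart from the interaction over all genes, which gave limma adjusted p = 1.00 for each, and each difference is smaller than its standard error (0.20, 0.34 and 0.21).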

How the results depend on the processing

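No member passed limma's test under any alternative run, in the 6 comparisons or against the family's median. Without the replicate block 0 members passed, as with it. Dropping the block leaves the batch differences in the residual spread, so this fit cannot say whether the pairing matters. The medians (0.127 in wild type) are the same by construction, since each group holds 1 library of each batch. The median of the interaction was −0.021 without a filter, −0.0051 with each library centred on its median, −0.079 after rescaling without short, rRNA and mitochondrial rows and 0.042 without both batch 2 libraries labelled knockout.

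Quantile normalization turned the labelled-knockout response to −0.061 and the genotype difference in complete medium to 0.122, and brought the mean response to 0.0063 and the interaction to −0.115. The members higher in serine/glycine-free medium in all 4 pairs numbered 7, as did those lower in cells labelled knockout in all 4 and those lower in batch 1 and higher in batch 2, of which rescaling left 12. In the mean response quantile normalization also turned RPL23 to −0.087, RPL39 to −0.028, RPL41 to −0.014, RPLP2 to −0.032, RPS3 to −0.015, RPSA to −0.0078 and RPS27L to −0.068, and in wild type RPS19 to 0.091. The RPS27L mean response was also −0.011 with a pseudocount of 10 FPKM, −0.031 after rescaling and −0.104 without both batch 2 libraries labelled knockout. Quantile normalization gives every library 1 distribution; the cause of these changes was not tested.

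With 1 library left out, the family's median ranged from 0.0039 to 0.234 in wild type, from −0.022 to 0.203 in cells labelled knockout, from −0.117 to 0.087 and from −0.175 to 0.097 for the genotype in complete and serine/glycine-free medium, and from −0.160 to 0.090 for the interaction. Of the members, the range was −0.041 to 0.0051 for RPL18 and −0.233 to 0.208 for RPS19 in wild type, and −0.159 to 0.024 for RPS15 in cells labelled knockout. In the mean response it was −0.117 to 0.040 for RPS28, −0.0048 to 0.165 for RPL10L, −0.0056 to 0.285 for RPL11, −0.038 to 0.252 for RPL41, −0.108 to 0.306 for RPL7, −0.137 to 0.139 for RPS27L and −0.014 to 0.195 for RPS3. In the interaction it was −0.175 to 0.516 for RPS26 and −0.065 to 0.275 for RPL10L. The other results kept their direction in these fits, where a group left with 1 library was assumed to vary like the others. Depth is unknown, so counting error in low members such as RPL10L cannot be given.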
